A study of Xenopus tropicalis with 9 samples.

Results

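Ets family transcription factors were followed across RNA-seq libraries of *Xenopus tropicalis* embryos. The genes were chosen by name and no threshold on their values was applied, although earlier results of these data were known when the list was made. They are the Pea3 genes *etv1*, *etv4* and *etv5*, the founding family members *ets1* and *ets2*, the ternary complex factor genes *elk1*, *elk3* and *elk4*, and the repressor genes *etv6* and *erf*. Of these 10 genes, 9 were matched by symbol among the 23633 genes of the expression table, and *etv5* was not analysed here.

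The study compared Fgf4 overexpression with loss of the transcriptional repressor Capicua (Cic), to ask which genes respond to Fgf signalling and which of them Cic restrains. Whole embryos of the Nigerian strain were grown at 23 °C to stage 14, an early neurula stage, and poly(A) RNA was sequenced in 9 libraries, 3 in each of 3 groups. Control embryos received water, with neither plasmid nor nuclease mRNA. Fgf4 embryos received 5 pg of Cska-Fgf4, a plasmid in which the cytoskeletal actin promoter drives *fgf4* from zygotic stages in the cells that inherit it. Cic knockdown embryos received forward and reverse Cic-TALEN mRNAs, at 1 ng each by the study. These mRNAs encode a nuclease pair that cuts within the HMG box coding sequence. The knockdown embryos are injected founders, so cells with different alleles, intact ones included, can be present in the same embryo.

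Ets proteins share a DNA binding domain that recognises a GGAA core, and many are phosphorylated by Erk, the kinase activated downstream of Fgf receptors. Pea3 genes are transcribed in response to Fgf in many vertebrate tissues, and in mammals they are direct targets of repression by Cic. Elk proteins bind serum response elements together with Srf and switch on immediate early genes once Erk has phosphorylated them, whereas Erf and Etv6 act mainly as repressors.

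Levels are given as TPM, a measure of transcript abundance relative to the rest of the library and corrected for transcript length. The deposited values had been rescaled between libraries, so they do not sum to the same total in each. The injected gene *fgf4* was at 3.23, 4.07 and 0.953 TPM in control replicates 1, 2 and 3 and at 1692, 168 and 95.4 TPM in the Fgf4 libraries. Every Fgf4 library was therefore far above every control, with replicate 1 far above the others. The *cic* transcript was at 13.4 to 14.7 TPM in control, 14.9 to 16.2 TPM in Fgf4 and 11.8 to 14.7 TPM in Cic knockdown libraries, but transcript level is no check of cutting by a TALEN. The study checked cutting by sequencing the target in founder embryos and by mapping the RNA-seq reads over it. It concluded that targeting was efficient and mosaic. Libraries came from whole embryos, so fewer cells of a type and less RNA per cell cannot be told apart.

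Comparisons were made with limma on log2(TPM + 0.5), with treatment and replicate number as terms. A call needed an unadjusted p no higher than 0.01, and it also needed a rise of 1.75-fold or more or a fall to 0.571-fold or less. Log2 changes are on the TPM + 0.5 scale, which understates the change of genes with low levels. In this main fit no gene of the whole table reached a Benjamini-Hochberg adjusted p of 0.05 in any of the 3 comparisons. Each call below thus rests on the unadjusted p. Some alternative fits did hold such genes, as given at the end. The adjusted p is printed beside each change.

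Fgf4 overexpression lowered *ets1* and raised *elk3*, whereas the Pea3 genes *etv1* and *etv4* did not pass the test. That is 2 of the 8 Ets genes tested, beside 2.56% of all genes tested (1.4% called higher and 1.16% called lower), and *elk3* could be tested only because its level was high in the Fgf4 group. An unadjusted p under 0.05 was found for 3 of the 8 and for 13.3% of all genes. After Cic knockdown, 0 of 7 Ets genes tested were called by limma, beside 4.74% of all genes (3.99% higher and 0.75% lower), and 2, *etv6* and *ets2*, had an unadjusted p under 0.05, as did 17.2% of all genes. In the direct comparison of Cic knockdown with Fgf4 overexpression 1 of 8, *ets1*, was called, beside 2.13% of all genes (1.76% higher and 0.375% lower in Cic knockdown), and it alone of the 8 had an unadjusted p under 0.05, as did 13.5% of all genes. The median log2 change of the Ets genes tested was 0.13 after Fgf4 overexpression (all genes 0.01) and -0.01 after Cic knockdown (all genes -0.02). Both treatments were compared with the same control libraries.

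**Figure D1:**
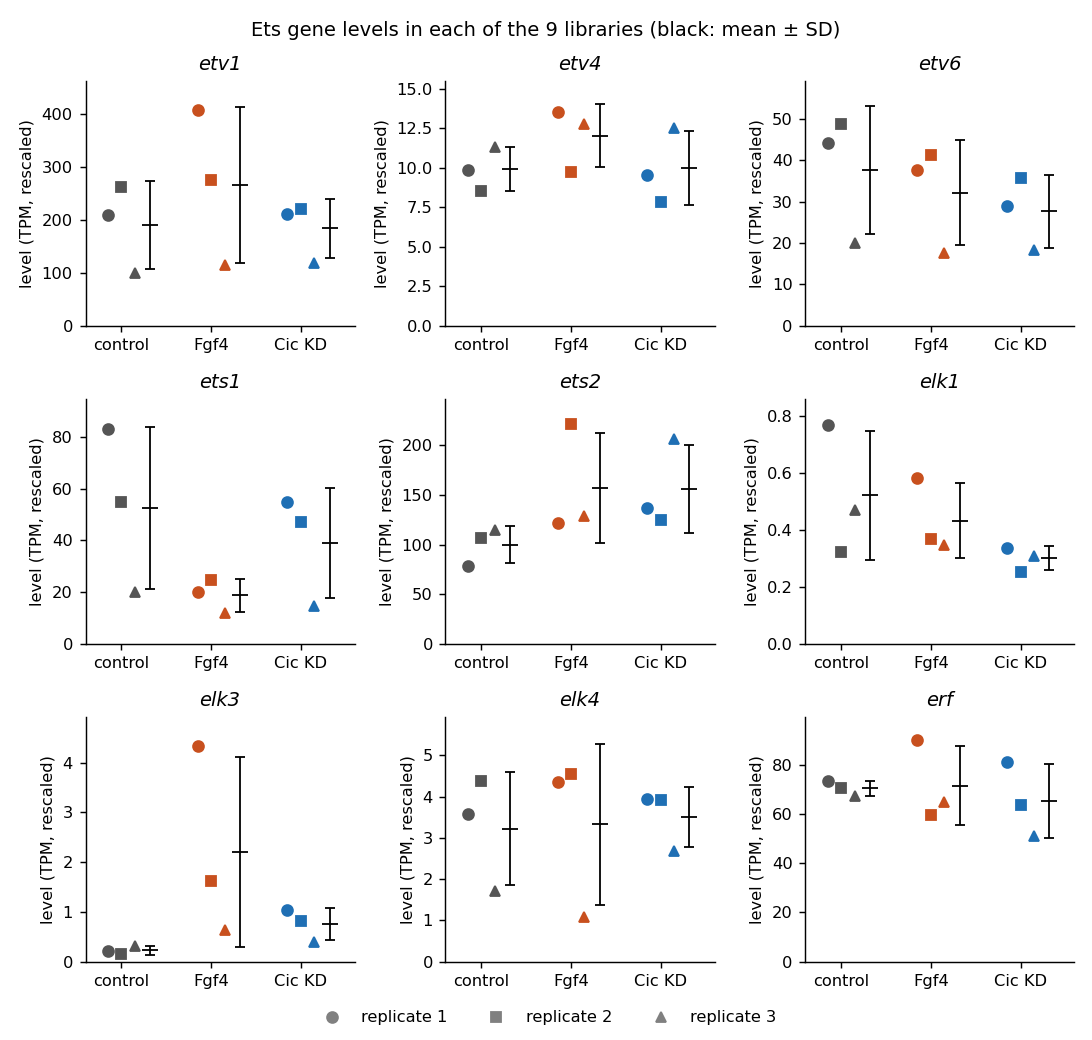
Level of each Ets gene in rescaled TPM (vertical axes, from 0) in the control, Fgf4 and Cic knockdown (Cic KD) groups; symbols are single libraries, with the shape giving the replicate number, and black bars are the mean ± SD of 3 libraries. *ets1* is at 11.7 to 24.5 TPM in the Fgf4 libraries against 20.2 to 82.9 TPM in control, while *etv1* replicate 3 lies lowest within every group.

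*etv1* encodes a Pea3 activator and was the Ets gene with the highest mean level. Its level was 210, 262 and 99.2 TPM in control replicates 1, 2 and 3 (191 ± 83.2, SD, n = 3). In the Fgf4 libraries it was 408, 277 and 114 TPM (266 ± 147), and in the Cic knockdown libraries 212, 222 and 119 TPM (184 ± 56.4). All 3 groups overlapped, and replicate 3 was the lowest of each. The Fgf4 libraries exceeded their control of the same number in 3 of 3 pairs, with log2 differences of 0.95, 0.08 and 0.21, so that most of the mean difference came from replicate 1. The fitted log2 change after Fgf4 overexpression was 0.41 (SE 0.21, 95% interval -0.09 to 0.91, limma adjusted p = 0.444). After Cic knockdown it was 0.01 (SE 0.21, interval -0.49 to 0.51, limma adjusted p = 0.985). Both intervals included 0, and the direct comparison of both treatments gave -0.40 (interval -0.90 to 0.10, limma adjusted p = 0.428).

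*etv4*, the other Pea3 gene measured, was expressed well below *etv1*. It was at 9.85, 8.55 and 11.3 TPM in control libraries (9.91 ± 1.39, SD, n = 3), 13.5, 9.74 and 12.8 TPM in Fgf4 libraries (12.0 ± 2.00) and 9.55, 7.84 and 12.5 TPM in Cic knockdown libraries (9.97 ± 2.36). The groups overlapped, and replicate 2 was the lowest of each. After Fgf4 overexpression the log2 differences of the pairs were 0.44, 0.18 and 0.17, above 0 in 3 of 3, with a fitted change of 0.26 (SE 0.16, interval -0.12 to 0.65, limma adjusted p = 0.527). After Cic knockdown the fitted change was -0.01 (interval -0.39 to 0.38, limma adjusted p = 0.987). For both Pea3 genes the interval after Cic knockdown thus included changes of either sign. *etv1* exceeded *etv4* by 21.4, 30.7 and 8.76 times in control libraries, 30.2, 28.4 and 8.95 times in Fgf4 libraries and 22.2, 28.2 and 9.53 times in Cic knockdown libraries, with replicate 3 again apart from the others in every group.

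**Figure D2:**
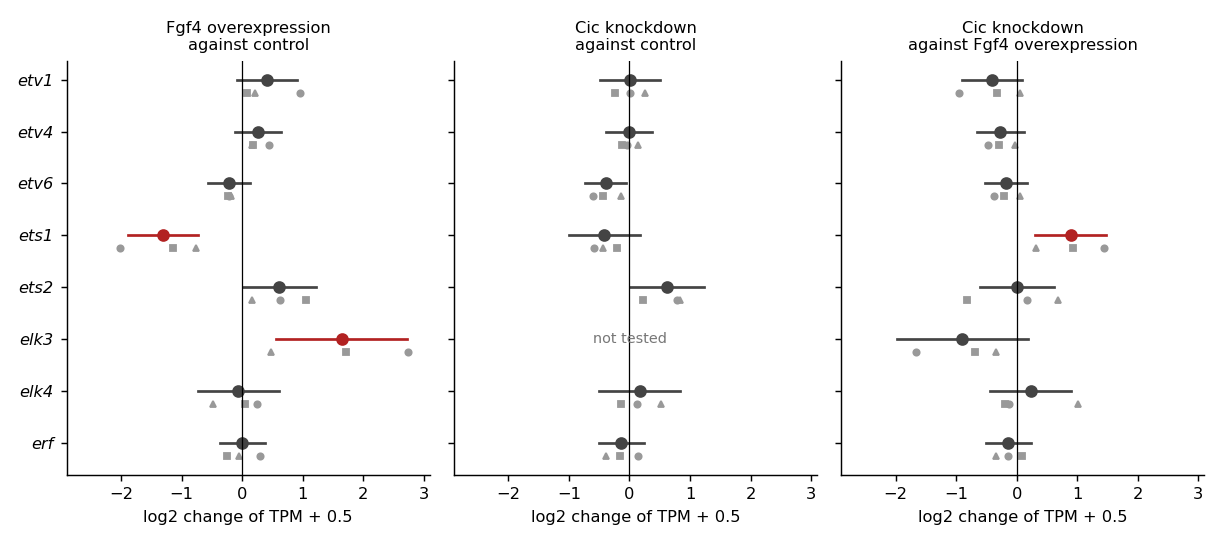
Log2 change of each tested Ets gene (horizontal axes) in each of the 3 comparisons; points are limma estimates with 95% intervals, red marks a call, and grey circles, squares and triangles are the differences of replicate pairs 1, 2 and 3. *ets1* (-1.31) and *elk3* (1.64) are called after Fgf4 overexpression and *ets1* (0.89) between the treatments, while the intervals of *etv1* and *etv4* include 0 throughout.

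*ets1* encodes the founding member of the family and is expressed in neural crest and in blood and endothelial precursors of vertebrate embryos. It was at 82.9, 54.6 and 20.2 TPM in control libraries (52.6 ± 31.4, SD, n = 3). In the Fgf4 libraries it was at 20.0, 24.5 and 11.7 TPM (18.7 ± 6.47), and in the Cic knockdown libraries at 54.9, 47.1 and 14.7 TPM (38.9 ± 21.3). Each Fgf4 library was below the control of the same number, although control replicate 3 lay within the Fgf4 range. The log2 differences of the pairs were -2.03, -1.14 and -0.76, and the fitted change was -1.31 (SE 0.25, interval -1.89 to -0.72, 0.404-fold, limma adjusted p = 0.287), which ranked 46 by p among the 13437 genes tested. The call was kept without any single library or replicate number, with changes of -1.59 to -0.95, and was lost without the replicate block.

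After Cic knockdown *ets1* was also lower in 3 of 3 pairs, by log2 differences of -0.59, -0.21 and -0.44, but the fitted change of -0.41 did not pass the test (SE 0.25, interval -0.999 to 0.17, limma adjusted p = 0.426). The difference between the treatments was tested directly, and *ets1* was higher in Cic knockdown than in Fgf4 libraries by 0.89 (SE 0.25, interval 0.31 to 1.48, 1.86-fold, limma adjusted p = 0.331), rank 314 by p among 13607 genes tested. This call was less stable: it was lost without the replicate block, with the 6 libraries of both groups alone and with a constant variance prior, and held in 3 of 12 fits that each left out 1 library or replicate number, with changes of 0.58 to 1.18. The fits that kept it were those without control replicate 1, without Fgf4 replicate 3 and without replicate number 3.

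Lists of neural crest markers and of blood and endothelial markers were read beside *ets1*. Whether each listed gene is limited to these cells at this stage was not tested. The summed level of 9 neural crest markers was 1105 to 1336 TPM in control, 781 to 1204 TPM in Fgf4 and 1057 to 1364 TPM in Cic knockdown libraries, and none of them was at 0 in any library. The largest parts of this sum in each control library were *tfap2c* (311, 458 and 346 TPM), *snai1* (285, 289 and 399 TPM) and *tfap2a* (150, 204 and 306 TPM). Markers at low levels thus weigh little in it. Among the 9, *twist1*, a crest and mesoderm transcription factor gene, was called lower after both treatments, by log2 changes of -1.05 and -1.01. The other 8 were not called in either comparison. After Fgf4 overexpression 3 of the 9 had an unadjusted p under 0.05, *twist1*, *snai2* (log2 change -1.67) and *sox9* (-1.11), and the median of the list was -0.54. After Cic knockdown 1 of the 9 did, and the median was -0.43. The summed level of 9 blood and endothelial markers was 398 to 541 TPM in control, 475 to 912 TPM in Fgf4 and 348 to 437 TPM in Cic knockdown libraries. Of the 7 tested, *tal1*, a regulator of blood formation, was called lower after Fgf4 overexpression with a log2 change of -2.29, and 3 had an unadjusted p under 0.05. Another of these, *lmo2*, also a blood regulator, had a log2 change of 1.49 and was not called. Its 775 TPM in Fgf4 replicate 1 made up most of the highest sum. The other, *hhex*, had a log2 change of -1.03 and was not called, and the median of the 7 was -0.51. *gata2* was the largest part of each control sum, at 236, 413 and 401 TPM. After Cic knockdown 4 of the 7 had an unadjusted p under 0.05, *etv2* was called lower, and the median was -1.05. Of the 9 markers, 1 was at 0 in at least 1 library. Over all genes, 1.16% were called lower after Fgf4 overexpression and 0.75% after Cic knockdown, and 13.3% and 17.2% had an unadjusted p under 0.05. The part of the crest, blood and endothelial cells in the change of *ets1* was not tested.

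*ets2* encodes a close relative of Ets1 whose activity is raised by Erk phosphorylation, and its transcript is also stored in *Xenopus* oocytes. It was at 78.8, 106 and 115 TPM in control libraries (mean 100.04, SD 18.9, n = 3). In the Fgf4 libraries it was at 121, 221 and 129 TPM (157 ± 55.7), and in the Cic knockdown libraries at 137, 125 and 207 TPM (156 ± 44.2). Neither treated group overlapped with control, as held for 6.55% of all genes tested after Fgf4 overexpression and for 14.3% after Cic knockdown. The fitted changes missed the limit for a call, at 0.61 after Fgf4 overexpression (SE 0.26, interval 0.01 to 1.22, limma adjusted p = 0.375) and 0.62 after Cic knockdown (SE 0.26, interval 0.01 to 1.23, limma adjusted p = 0.284). The direct difference was 0.01, with an interval of -0.60 to 0.61, and 0 of the 8 Ets genes separated the treatments without overlap, as 6.47% of all genes did. Single libraries decided whether *ets2* was called: it was called after Fgf4 overexpression without Fgf4 replicate 3 (0.89), and after Cic knockdown without Cic knockdown replicate 2 (0.93) or without replicate number 2 in all groups (0.81).

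A list of 17 oocyte and maternal transcripts was read beside *ets2*. Their summed level was 255, 324 and 174 TPM in control replicates 1, 2 and 3, 326, 540 and 174 TPM in Fgf4 libraries and 619, 515 and 522 TPM in Cic knockdown libraries, and none was at 0 in any library. The sum was 515 TPM or more in the 3 Cic knockdown libraries and in Fgf4 replicate 2. Within control, Fgf4 and Cic knockdown libraries, the sum was highest in replicates 2, 2 and 1, and *ets2* in replicates 3, 2 and 3. An order of 3 libraries, 1 of each replicate number, is no test. Of the 17, 12 were called higher after Cic knockdown and 0 after Fgf4 overexpression by limma, where 3 had an unadjusted p under 0.05. Among the 12, *btg4*, *cpeb1*, *gdf1* and *grip2* had control means of 0.976, 0.778, 0.459 and 0.560 TPM, below the minimum of 1.5 TPM. They could be tested after Cic knockdown only because their level was high in that group, which favours a rise. Over all genes, 3.99% were called higher after Cic knockdown and 1.4% after Fgf4 overexpression, where 13.3% had an unadjusted p under 0.05. The part of these transcripts in the level of *ets2* was not tested.

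*elk3* encodes a ternary complex factor that can repress as well as activate. It was at 0.224, 0.146 and 0.325 TPM in control libraries, 4.34, 1.63 and 0.643 TPM in Fgf4 libraries and 1.03, 0.825 and 0.398 TPM in Cic knockdown libraries. The Fgf4 libraries did not overlap with control, as held for 2 of 8 Ets genes and 6.55% of all genes tested. *elk3* counts among these 2 although it could be tested only because its level was high in the Fgf4 group. The order of the Fgf4 libraries was that of *fgf4*, highest in replicate 1 and lowest in replicate 3. In the Cic knockdown libraries, without plasmid and with *fgf4* at 6.57, 4.40 and 5.48 TPM, *elk3* had the same order. In control libraries it was highest in replicate 3 and lowest in replicate 2. An order of 3 libraries is no test, and a relation of *elk3* to the level of *fgf4* was not tested. After Fgf4 overexpression the mean of *elk3* rose from 0.231 ± 0.0897 to 2.20 ± 1.91 TPM (SD, n = 3 each). The fitted log2 change was 1.64 (SE 0.46, interval 0.56 to 2.72, limma adjusted p = 0.300), which ranked 375 by p. The call was lost without the replicate block, with a pseudocount of 1 (log2 change 1.21), with the 6 libraries of both groups alone and in 7 of the 10 leave-one-out fits in which the gene could be tested, which gave 1.28 to 2.23.

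Without Fgf4 replicate 1, or without replicate number 1 in all groups, *elk3* no longer reached the minimum mean level of 1.5 TPM and could not be tested. It was not tested after Cic knockdown for the same reason, and without that minimum the log2 change was 0.75, short of a call. The direct difference between the treatments was -0.90 (SE 0.46, limma adjusted p = 0.421).

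The remaining ternary complex factor genes showed no called change. *elk1* was at 0.254 to 0.771 TPM over the 9 libraries, below the minimum level in every group, and was not tested. *elk4* was at 3.59, 4.37 and 1.71 TPM in control libraries, 4.36, 4.55 and 1.08 TPM in Fgf4 libraries and 3.95, 3.91 and 2.68 TPM in Cic knockdown libraries. The groups overlapped, with replicate 3 the lowest of each. The fitted log2 change of *elk4* was -0.06 after Fgf4 overexpression (interval -0.74 to 0.61, limma adjusted p = 0.943) and 0.17 after Cic knockdown (interval -0.51 to 0.84, limma adjusted p = 0.794), and the sign of both depended on single libraries.

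*etv6* encodes a repressor needed in mammals for blood stem cells. It was at 44.1, 48.8 and 20.1 TPM in control libraries (37.6 ± 15.4, SD, n = 3). In the Fgf4 libraries it was at 37.7, 41.3 and 17.5 TPM (32.2 ± 12.8), and in the Cic knockdown libraries at 29.0, 35.8 and 18.2 TPM (27.6 ± 8.88). The groups overlapped because replicate 3 was low in each, but every treated library was below the control of its own number. After Fgf4 overexpression the pairs differed by -0.22, -0.24 and -0.19, with a fitted change of -0.22 (SE 0.15, interval -0.56 to 0.13, limma adjusted p = 0.554). After Cic knockdown they differed by -0.60, -0.44 and -0.14, with a fitted change of -0.39 (SE 0.15, interval -0.74 to -0.05, limma adjusted p = 0.246). That value met neither limit of a call, and leaving out single libraries moved it between -0.52 and -0.29.

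*erf* encodes a repressor that Erk phosphorylation removes from the nucleus. It was at 73.4, 70.8 and 67.2 TPM in control libraries (70.5 ± 3.09, SD, n = 3), the smallest relative spread of any of the 9 genes in control. In the Fgf4 libraries it was at 90.0, 59.7 and 65.1 TPM (71.6 ± 16.2), and in the Cic knockdown libraries at 81.0, 63.5 and 51.0 TPM (65.2 ± 15.1). Both treated groups spanned the control values. The fitted log2 change was 0.00 after Fgf4 overexpression (SE 0.16, interval -0.37 to 0.37, limma adjusted p = 0.999) and -0.14 after Cic knockdown (SE 0.16, interval -0.51 to 0.23, limma adjusted p = 0.681).

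Levels per transcript length allow the genes to be ranked within a library. Among all genes of the table, *etv1* was at percentile 96.4 of the mean control level, *ets2* at 93.2, *erf* at 90.5, *ets1* at 87.7 and *etv6* at 84.1. *etv4* stood at percentile 66.5, *elk4* at 53.0, *elk1* at 36.8 and *elk3* at 30.1, so the Elk genes had the lowest levels of the 9. Ordered by the mean over all libraries, *ets2* exceeded *erf*, *etv6* exceeded *etv4*, *etv4* exceeded *elk4* and *elk4* exceeded *elk3* in 9 of 9 libraries. Other neighbours changed places: *etv1* exceeded *ets2* in 6 of 9 libraries, all but those of replicate 3, and *ets1* exceeded *etv6* in 5 of 9. *erf* exceeded *ets1* in 8 of 9, all but control replicate 1, and *elk3* exceeded *elk1* in 6 of 9, all but the control libraries.

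**Figure D3:**
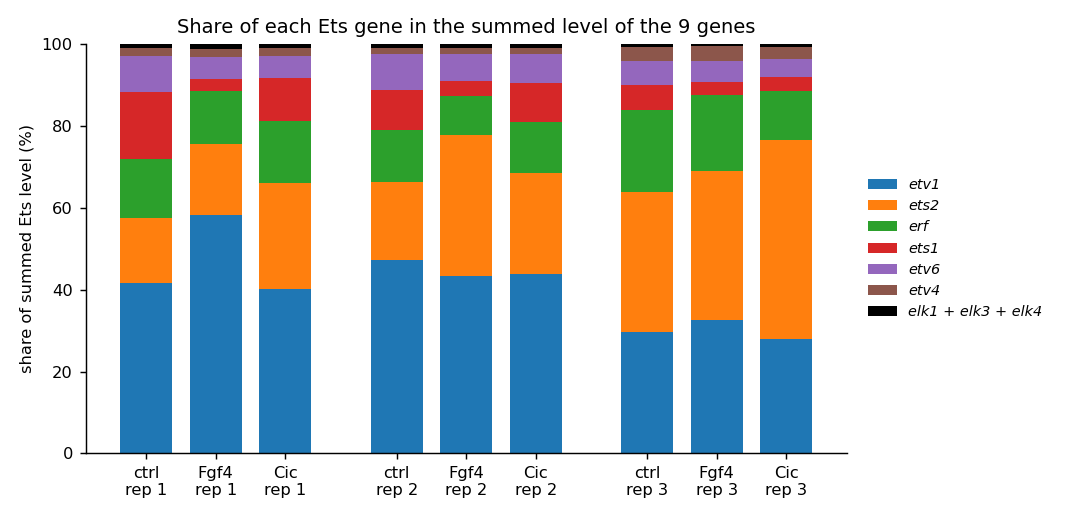
Share of each Ets gene in the summed level of the 9 genes (vertical axis, percent) in each library, with libraries grouped by replicate number. *etv1* holds 58.3% in Fgf4 replicate 1 but 28.0% to 32.5% in the replicate 3 libraries, where *ets2* holds 34.3% to 48.5%.

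Shares of the summed level of the 9 genes do not depend on the rescaling of libraries. *etv1* held 41.7%, 47.2% and 29.6% in control replicates 1, 2 and 3, 58.3%, 43.2% and 32.5% in Fgf4 libraries and 40.1%, 43.8% and 28.0% in Cic knockdown libraries. It was the largest contributor in replicates 1 and 2 of every group, and *ets2* was in replicate 3 of every group. *ets1* held 16.5%, 9.82% and 6.01% in control libraries, 2.86%, 3.83% and 3.32% in Fgf4 libraries and 10.4%, 9.32% and 3.46% in Cic knockdown libraries. By share, unlike by level, *ets1* did not overlap between Fgf4 and control libraries. The sum it is divided by includes *etv1* and *ets2*, whose means were 191 and 100.04 TPM in control and 266 and 157 TPM in Fgf4 libraries. A share of *ets1* therefore also falls when these genes are higher, and how often other genes separate by share was not computed. The ratio of *ets1* to *ets2* was 1.05, 0.514 and 0.175 in control, 0.165, 0.111 and 0.0910 in Fgf4 and 0.402, 0.378 and 0.0713 in Cic knockdown libraries. Each Fgf4 library was below every control library, the nearest being 0.165 against 0.175. The ratio was not planned and carries no test. It divides a gene that was lower in Fgf4 libraries by a gene that was higher in them, so this separation adds nothing to the levels.

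Replicate number, taken here as the batch of embryos because the study models one, separated several Ets genes within every treatment group. Its term in the fit had an adjusted p of at most 0.05 for 4 of the 8 Ets genes in the fit, *etv6* (limma adjusted p = 0.0026), *ets1* (0.00564), *etv1* (0.00613) and *elk4* (0.0323). The same held for 41.9% of all genes in the fit, so that this count lay near that of the table as a whole. All 4 were lower in replicate 3 than in the mean of replicates 1 and 2, by log2 differences of -1.05 for *etv6*, -1.45 for *ets1*, -1.21 for *etv1* and -1.05 for *elk4*. The median over all genes in the fit was 0.03, but rises and falls cancel in it. The 4 were not set against the other genes whose term passed. *ets1* was lower in replicate 3 by -1.71 in control, -0.89 in Fgf4 and -1.75 in Cic knockdown libraries. For *etv4* the difference was 0.32 and for *ets2* 0.21, and neither passed (limma adjusted p = 0.107 and 0.332).

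**Figure D4:**
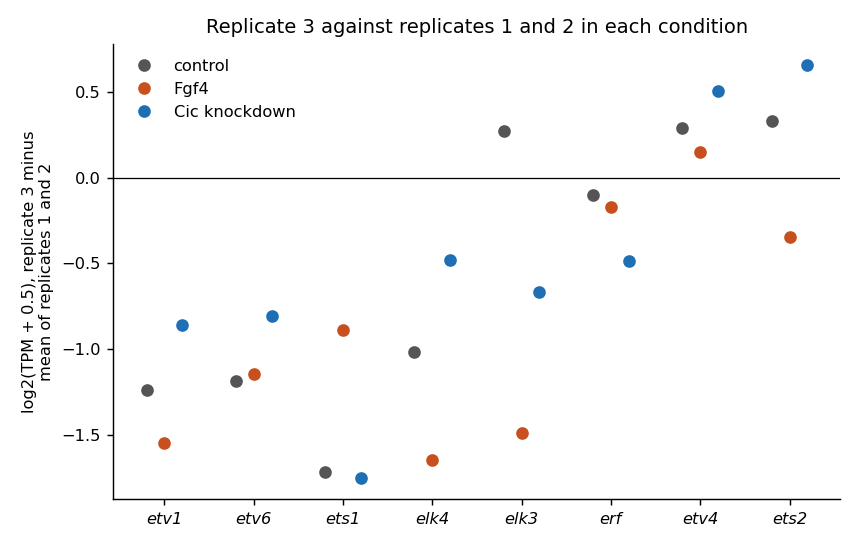
Log2 level in replicate 3 minus the mean of replicates 1 and 2 (vertical axis) for each Ets gene in the fit, with 1 point for each treatment group. *etv1*, *etv6*, *ets1*, *elk4* and, nearer to 0, *erf* lie below 0 in all 3 groups, and *etv4* lies above 0 in all 3.

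Replicate 1 had the highest *fgf4* level of the Fgf4 libraries and, for 5 of the 8 Ets genes tested, the largest difference from its control in absolute value, as it did for 44.7% of all genes tested. *elk3* is among the 5, but it reached the minimum level for a test only through its level in Fgf4 replicate 1. Its place in this count was thus favoured by that minimum. After Cic knockdown pair 1 held the largest difference for 2 of 7 Ets genes, beside 41.2% of all genes.

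Genes known in vertebrates as feedback inhibitors or targets of Fgf and Erk were read beside the Ets genes, from a list of 29 of which 27 were tested. After Fgf4 overexpression 12 were called higher and 0 lower by limma, where 18 had an unadjusted p under 0.05, and the median log2 change of the 27 was 0.93. Over all genes, 1.4% were called higher and 13.3% had an unadjusted p under 0.05. Several genes of this list were also singled out by the study from these libraries, so the count is not independent evidence of a direction. The 12 included the feedback inhibitor genes *dusp6*, *spry1*, *spry2*, *spry4* and *il17rd*, the immediate early genes *egr1*, *fos*, *fosl1*, *atf3* and *ier3*, the Ras-like gene *rasl11b* and the mesoderm gene *tbxt*. With a control mean of 0.926 TPM, *fosl1* could be tested only because its level was high in the Fgf4 group. *dusp6*, an Erk phosphatase gene, was at 78.7, 77.0 and 58.1 TPM in control and 308, 143 and 100.4 TPM in Fgf4 libraries, a log2 change of 1.21 (SE 0.27, limma adjusted p = 0.287). *etv1* and *etv4* changed by 0.41 and 0.26 in the same libraries, and the difference of these changes from that of *dusp6* was not tested.

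After Cic knockdown 6 of the 27 were called higher and 0 lower, with 10 at an unadjusted p under 0.05 and a median of 0.29. These 6 were the immediate early genes *atf3*, *fos*, *fosl1*, *ier3* and *jun*, and *rasl11b*. Here too *fosl1* could be tested only because its level was high in the treated group. Over all genes, 3.99% were called higher and 17.2% had an unadjusted p under 0.05. Between the treatments, *mycn* and *spry2* were called lower in Cic knockdown than in Fgf4 libraries, by log2 changes of -0.86 and -0.90, and no gene of the list was called higher. Over all genes, 0.375% were called lower and 1.76% higher. Of 19 genes of partners and regulators of Ets proteins, which include *srf* and the Ets degradation factor gene *cop1*, limma called 0 in any comparison. Of those tested, 2 of 17 after Fgf4 overexpression, 2 of 18 after Cic knockdown and 3 of 18 between the treatments had an unadjusted p under 0.05. The same held for 13.3%, 17.2% and 13.5% of all genes.

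Of 18 other Ets genes listed, 16 were in the table. After Fgf4 overexpression 1 of the 9 tested was called, *spib*, and after Cic knockdown 2 of 11, *etv2* and *spib*, all lower than in control. Over all genes, 1.16% and 0.75% were called lower. *spib*, a marker of primitive myeloid cells in *Xenopus*, was at 44.0, 19.8 and 27.5 TPM in control, 1.29, 0.785 and 4.20 TPM in Fgf4 and 0.867, 3.03 and 6.29 TPM in Cic knockdown libraries. Neither treated group overlapped with control, and the log2 changes were -3.73 (SE 0.55, limma adjusted p = 0.264) and -3.20 (SE 0.55, limma adjusted p = 0.0765). The summed level of 7 primitive myeloid markers was 48.3 to 175 TPM in control, 8.22 to 14.9 TPM in Fgf4 and 9.50 to 14.3 TPM in Cic knockdown libraries. Of the 7, 1 was at 0 in at least 1 library. The sum is mostly *spib* itself, *mpo* and *cebpa*, with control means of 30.4, 44.3 and 23.6 TPM. Control means of *cebpe*, *lcp1*, *coro1a* and *spi1* were 1.15, 0.999, 0.832 and 0.151 TPM. After Fgf4 overexpression 4 of the 7 were tested, and after Cic knockdown 3. *cebpa* and *mpo* were called lower after both treatments. *coro1a*, tested after Fgf4 overexpression, had a log2 change of 0.53 and was not called. The part of the myeloid cells in the change of *spib* was not tested.

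*etv2*, a regulator of blood and endothelial fate, was at 19.5, 7.75 and 27.6 TPM in control, 14.5, 4.29 and 28.2 TPM in Fgf4 and 8.37, 3.92 and 9.72 TPM in Cic knockdown libraries. Replicate 2 was the lowest of each group, and the groups overlapped. It was lower in 3 of 3 Cic knockdown pairs, by log2 differences of -1.17, -0.90 and -1.46, with a fitted change of -1.18 (SE 0.25, limma adjusted p = 0.0983), rank 296 by p among 13598 genes tested. The call was lost without the replicate block and in 4 of 12 leave-one-out fits, those without control replicate 1, control replicate 2, Cic knockdown replicate 1 and replicate number 1. After Fgf4 overexpression the change of *etv2* was -0.39 (limma adjusted p = 0.542), and the direct difference of -0.79 was not called.

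Between the treatments 1 of 11 other Ets genes was called, beside 2.13% of all genes. It was *spdef*, a gene of secretory epithelia in mammals. Its level was 4.09, 9.53 and 19.1 TPM in control replicates 1, 2 and 3. Fgf4 libraries had 1.74, 5.97 and 18.7 TPM and Cic knockdown libraries 4.27, 9.49 and 36.6 TPM, and all groups overlapped. The log2 difference was 0.89 (SE 0.24, limma adjusted p = 0.331), which was lost without the replicate block and held in 3 of 12 leave-one-out fits.

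The genes whose profile over the 9 libraries was most like that of each Pea3 gene were ranked by the root mean square difference of centred log2 levels, as a description with no test. Among 13832 other genes, the closest named genes to *etv1* were *amer1*, a Wnt pathway regulator gene, at 0.0900, *f2r*, a thrombin receptor gene, at 0.134 and *dusp4*, a Mapk phosphatase gene, at 0.155. *dusp4* was at 15.6, 14.7 and 5.94 TPM in control, 21.9, 19.4 and 6.24 TPM in Fgf4 and 13.1, 15.4 and 6.57 TPM in Cic knockdown libraries, lowest in replicate 3 of each group as *etv1* was. Among the other chosen Ets genes *elk4* and *etv6* were nearest to *etv1*, at ranks 512 and 549, while *etv4* was at rank 6160. The closest named genes to *etv4* were *ahctf1*, a nuclear pore gene, at 0.0873, *eaf2*, a transcription elongation factor gene, at 0.0910 and *eif2b3*, a translation initiation factor gene, at 0.0951. The nearest to *etv4* among the chosen Ets genes was *erf*, at rank 2242. The measure is not scaled by the spread of a gene, so genes that vary little lie close to each other. *etv4* and *erf* both varied little, with a highest over lowest level of 1.72 and 1.76, so this nearness does not show a shared profile.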

How the data were processed

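RNA from 9 whole-embryo libraries was analysed. Directional poly(A) libraries were prepared by the authors, who used cutadapt, Salmon for quantification and sleuth for aggregation by gene. The authors deposited 1 table of gene-level TPM, treated here as signal because the 9 library sums run from 871757 to 1162165 and a factor was thus applied after TPM that is not given in the sources used here. Versions are not given there either. The study gives a lower bound on the reads per sample, but TPM keeps no counts, so the depth of each library is not known here. Precision rests on the replicates alone. Columns of the authors' group means were not tested.

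The replicate number in the labels was taken as embryo batch, since the study models batch and treatment. Libraries with the same number departed from their group means together in all 9 pairs (correlations of 0.380 to 0.791), so the block was kept. The labels do not state how many embryos a library holds, nor that libraries came from separate clutches. Genes with a mean of at least 1.5 TPM in at least 1 group compared were tested, 13437, 13598 and 13607 of the 13833 fitted over all 9 libraries with limma 3.58.1 (lmFit, eBayes; R 4.3.3; pseudocount 0.5, variance prior following mean level, 4 residual and 3.31 prior degrees of freedom). P values are two-sided, adjusted by Benjamini and Hochberg over all genes tested. The limits for a call take their numbers from the study, whose 1.75 is set on an effect size and was applied here as a fold change. The procedure was tested on simulated data.

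Genes named are the Ets genes, called genes of the lists (other Ets genes, Fgf and Erk genes, partners, and markers of 9 tissues or cell types) and the 3 closest named genes to *etv1* and *etv4*. The members and lists were chosen with earlier results of these data known. The alternatives tried were a fit with no replicate block, a pseudocount of 0.1 or 1, a minimum of 5 TPM or none, the 6 libraries of a comparison alone, 2 other scalings, a constant variance prior, an adjusted p of at most 0.05, no limit on fold change, and leave-one-out fits by library and by replicate number. Sequences and coordinates were not used here.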

Additional observations from a re-analysis of the deposited data

Results flagged for a closer look

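The effects of the treatments on *ets1* differed by a direct test, but the call was not stable. The log2 change from the shared control libraries was -1.31 after Fgf4 overexpression and -0.41 after Cic knockdown, and Cic knockdown libraries were higher than Fgf4 libraries by 0.89 (SE 0.25, limma adjusted p = 0.331), in 3 of 3 replicate pairs with differences of 1.43, 0.93 and 0.32. It was lost in 12 of 21 alternatives: without the replicate block, with the 6 libraries alone, with a constant variance prior and in 9 of 12 leave-one-out fits, which gave 0.58 to 1.18 in all.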

How the results depend on the processing

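The depth of each library is not known here, and with 3 libraries a group precision rests on the spread between them. With an adjusted p of at most 0.05 in place of the unadjusted limit, 0 Ets genes and 0 genes of the Fgf and Erk list were called after either treatment, and 0 Ets genes between the treatments. This holds for the main fit. After Cic knockdown 275 genes of the table reached that limit with the 6 libraries alone, 276 without Cic knockdown replicate 2 and 168 without Fgf4 replicate 2. After Fgf4 overexpression 390 did without Fgf4 replicate 3. Other alternatives gave fewer, often none. Ets genes were not counted at that limit in these fits. Without the replicate block, called Ets genes fell from 2 to 0 after Fgf4 overexpression and from 1 to 0 between the treatments, and calls over all genes fell from 344 to 121, from 645 to 371 and from 290 to 143. The pairing behind this block changed no other call on an Ets gene of the 10 chosen. After Fgf4 overexpression 1 Ets gene was called with a pseudocount of 1, with a minimum of 5 TPM and with only the 6 libraries of the comparison, and 1 to 3 when libraries or replicate numbers were left out. After Cic knockdown leaving them out gave 0 to 1 called Ets genes. Between the treatments the count was 0 with the 6 libraries alone and with a constant variance prior, and 0 to 1 when libraries were left out. The Fgf and Erk list had 4 to 15 genes called higher after Fgf4 overexpression when libraries or replicate numbers were left out, 4 without replicate number 2, 6 without control replicate 1 and 7 without control replicate 2.

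Signs of changes near 0 were not stable. With median-of-ratios scaling the log2 change was -0.021 for *erf* after Fgf4 overexpression, -0.051 for *etv1* after Cic knockdown and -0.032 for *ets2* between the treatments. With each library scaled to the same sum it was -0.033 for *erf* after Fgf4 overexpression and 0.083 for *etv4* after Cic knockdown. Leaving out libraries gave -0.15 to 0.12 for *erf* and -0.23 to 0.24 for *elk4* after Fgf4 overexpression, -0.17 to 0.16 for *etv1*, -0.10 to 0.055 for *etv4* and -0.12 to 0.35 for *elk4* after Cic knockdown, and -0.33 to 0.42 for *ets2* and -0.16 to 0.44 for *elk4* between the treatments. The cause was not tested. The alternatives for the Fgf and Erk list and for *etv2*, *spib* and *spdef* were chosen after seeing the data.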

Other observations

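Replicate number also separated some Ets genes outside the chosen 10, as its term did for 41.9% of all genes in the fit. *etv3*, a repressor gene, was lower in replicate 3 than in the mean of replicates 1 and 2 by a log2 difference of -1.24 (limma adjusted p = 0.00607 for replicate number) and *gabpa*, a gene of a widely expressed Ets activator, by -0.59 (adjusted p = 0.0334). *spdef* was higher by 2.09 (adjusted p = 0.00116) and *etv2* by 1.20 (adjusted p = 0.00381), so these genes did not all differ in 1 direction between replicate 3 and the others. Among those that did not pass were *elf1*, *elf2* and *spib* (limma adjusted p = 0.293, 0.356 and 0.212).

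The ratio of *etv1* to *etv6* was chosen after its values were seen and carries no test. It was 4.77, 5.38 and 4.94 in control replicates 1, 2 and 3, 10.8, 6.70 and 6.53 in Fgf4 libraries and 7.30, 6.19 and 6.57 in Cic knockdown libraries. Every treated library lay above every control library, and replicate 3, in which both genes were low, did not stand apart. By level, neither gene separated from control after either treatment. How often other pairs of genes separate by ratio was not computed. The ratio does not depend on the rescaling of libraries.

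Of the remaining marker lists, neural plate had 0 of 6 called after Fgf4 overexpression by limma (3 with an unadjusted p under 0.05). After Cic knockdown 2 of 6 were called lower, *sox2* and *sox3* (4 with an unadjusted p under 0.05). Somitic mesoderm had 1 of 7 higher after Fgf4 overexpression, *tbxt* (4 with an unadjusted p under 0.05). It had 0 of 7 after Cic knockdown (0 with an unadjusted p under 0.05). Notochord had 0 of 6 after Fgf4 overexpression (1 with an unadjusted p under 0.05). After Cic knockdown it had 1 of 6 higher, *nog* (2 with an unadjusted p under 0.05). Endoderm had 1 of 8 called after either treatment, *sox17b.2*, which was higher, and 4 of 8 with an unadjusted p under 0.05 after each. Epidermis had 1 of 7 lower after Fgf4 overexpression, *tp63* (3 with an unadjusted p under 0.05). It had 0 of 7 after Cic knockdown (0 with an unadjusted p under 0.05). Over all genes, 2.56% were called after Fgf4 overexpression and 4.74% after Cic knockdown, and 13.3% and 17.2% had an unadjusted p under 0.05.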
